A study of Komagataella phaffii GS115 with 6 samples.

Results

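The iron and zinc uptake genes described here are FRE3 (PAS_chr4_0240), annotated as a ferric reductase, FET4 (PAS_chr2-2_0009), annotated as a low-affinity iron transporter, and zrt1 (PAS_chr3_0516), annotated as a zinc transporter. They were taken by identifier, 3 genes of the 115 in the table analysed here. RNA-seq was made from the methylotrophic yeast Komagataella phaffii strain GS115, labelled WT, after 48 h in BMMY or in BMMY with 1% maltose, with 3 libraries for each medium and 6 in all. BMMY is a buffered complex medium of yeast extract and peptone in which methanol is the added carbon source, and GS115 is a common laboratory host that cannot make histidine, so both groups share the strain, the methanol medium and the time. The series concerns the production of recombinant collagen, and the labels leave unsaid whether these cells carried a collagen construct and whether each library had its own culture. The spread between libraries may therefore be technical.

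Yeasts meet iron mostly in its oxidised, ferric form, which is poorly soluble. Ferric reductases in the plasma membrane pass electrons outward and turn ferric iron, free or bound to siderophores, into the ferrous form that transporters carry. In Saccharomyces cerevisiae, ferrous iron then enters through a high-affinity oxidase and permease pair or through the low-affinity carrier Fet4, which also accepts copper and zinc. Zinc enters fungal cells through transporters of the ZIP family, and the genes for them in S. cerevisiae and Schizosaccharomyces pombe are switched on when zinc is scarce. The symbols used here come from the closest Swiss-Prot protein in the deposited annotation, which is a S. cerevisiae protein for FRE3 and FET4 and a S. pombe protein for zrt1.

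All 115 genes had been chosen by the authors for a difference between these same 6 libraries, 56 higher and 59 lower with maltose. The smallest log2 fold change of the authors' deposited table was 1.00 in size. The contrast between the media therefore chose FRE3, FET4 and zrt1. Their differences are given as a description, and no test is made of them. Values are FPKM, in which the authors scaled each count to the length of the gene and the depth of the library. The depth implied by counts and FPKM was between 35.3 and 76.1 M fragments per library, and the listed genes took 6.83% to 10.1% of it in BMMY and 14.9% to 15.3% with maltose. Of the 56 listed genes that were higher with maltose, 47 had their highest BMMY value in replicate 1.

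The ferric reductase gene was higher with maltose and both transporter genes were lower. FRE3 averaged 2.37 times its BMMY level with maltose, FET4 was 3.52-fold lower and zrt1 was 2.97-fold lower. The libraries of the media did not overlap for any of the 3 genes. The same was true of 94.8% of the listed genes, 43.5% being higher and 51.3% lower with maltose, as follows from how the list was made, so nothing is read from this count. FET4 was the most abundant of the 3 transcripts per length in every library.

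**Figure D1:**
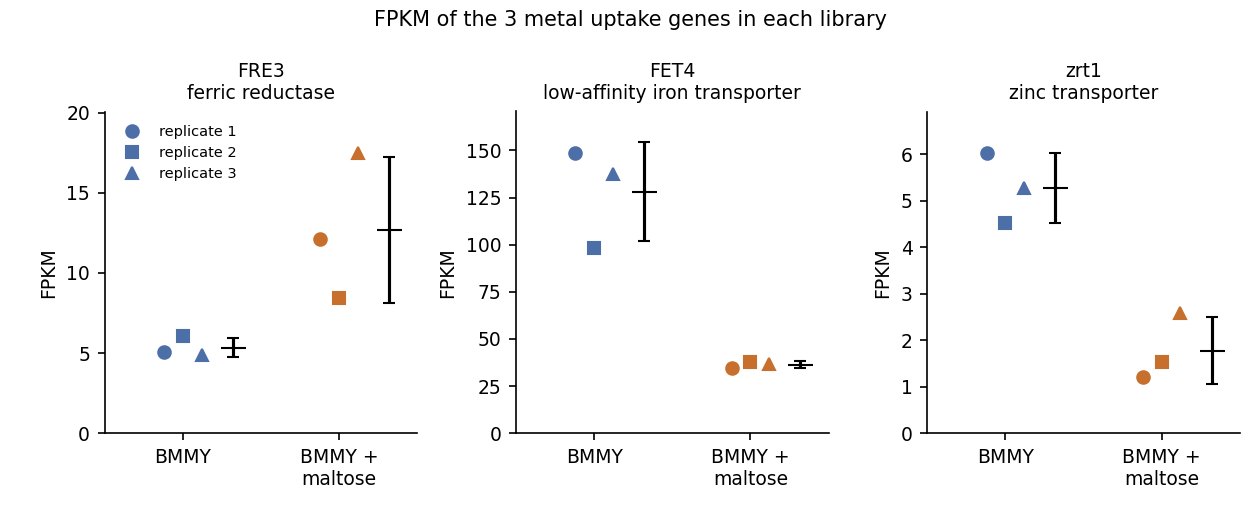
FPKM of FRE3, FET4 and zrt1 in each library (y axis, from 0, a separate scale for each gene), with the 3 BMMY libraries in blue and the 3 maltose libraries in orange, the marker shape giving the replicate, and the bar beside each group giving the mean and SD (n = 3). FRE3 lies higher with maltose and FET4 and zrt1 lower. In FPKM, FET4 varies more in BMMY and FRE3 more with maltose, while the SD of zrt1 is similar, 0.752 in BMMY and 0.719 with maltose.

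FRE3 is annotated as a reductase that releases iron from siderophores before uptake, and its protein carries the ferric reductase transmembrane, FAD-binding and NAD-binding domains in the deposited Pfam annotation. It had 5.08, 6.05 and 4.91 FPKM in BMMY replicates 1, 2 and 3. With maltose it had 12.1, 8.43 and 17.5 FPKM in replicates 1, 2 and 3. Every maltose library was above every BMMY library, and the lowest maltose value was 1.39 times the highest BMMY value. The means were 5.35 ± 0.616 and 12.7 ± 4.54 FPKM (SD, n = 3), and the log2 fold change was 1.24 (SE 0.27) in edgeR's quasi-likelihood fit over the listed genes. The maltose libraries spanned 2.07-fold and the BMMY libraries 1.23-fold. The counts behind these values ran from 558 to 1425 fragments, whose counting error alone is at most 4.23%, against a coefficient of variation of 35.8% among the maltose libraries. Counting errors here cover counting only.

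The size of the FRE3 difference depended on how the libraries were scaled. With the FPKM of the listed genes summed to the same total in each library, the log2 fold change was 0.37 and the media overlapped. With TMM factors it was 0.71, and with the scaling behind the authors' deposited log2 fold changes it was 1.58. The scalings tried moved the listed genes together, by a median of -0.86 for equal FPKM sums, -0.48 for TMM and 0.36 for the authors' scaling, and FRE3 was positive in each of them. Equal FPKM sums, TMM and equal medians all take the listed genes as their own scaling reference, though these genes were chosen for this contrast. For FRE3, equal medians gave 1.54 over the fitted genes and 2.06 over all listed genes. The listed genes took a larger share of the depth with maltose, and equal sums remove that difference, which lowers the log2 fold changes. FRE3 belongs to a gene family, and whether reads were shared with other ferric reductase genes was not tested.

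FET4 is annotated as a ferrous iron transporter of the plasma membrane, with a single Pfam domain, the low-affinity iron permease, and with gene ontology terms for iron and copper transport. It had 148, 98.4 and 138 FPKM in BMMY replicates 1, 2 and 3. With maltose it had 34.5, 38.0 and 36.8 FPKM. The maltose libraries lay within 1.10-fold of each other, while BMMY replicate 2 was well below the other BMMY libraries. Even so, that library was 2.59 times the highest maltose library. The means were 128 ± 26.4 and 36.4 ± 1.78 FPKM (SD, n = 3), and the log2 fold change was -1.82 (SE 0.22). Counts were 2032 to 12358 fragments, so counting error was at most 2.22% in any library, beside coefficients of variation of 20.6% in BMMY and 4.88% with maltose.

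The zinc transporter gene zrt1 is annotated as a high-affinity carrier of the plasma membrane with a ZIP domain. Its transcript was scarce, at 6.02, 4.51 and 5.27 FPKM in BMMY replicates 1, 2 and 3. With maltose it had 1.21, 1.53 and 2.58 FPKM in replicates 1, 2 and 3. No maltose library reached a BMMY library, the lowest BMMY value being 1.75 times the highest maltose value. The means were 5.27 ± 0.752 and 1.77 ± 0.719 FPKM (SD, n = 3), and the log2 fold change was -1.58 (SE 0.29). With maltose the counts were 106, 111 and 144 fragments, the lowest of the 3 genes, and counting error there was 8.33% to 9.71%. The coefficient of variation of the maltose libraries was 40.5%, several times that. Without maltose replicate 3, which held the highest maltose value, the log2 fold change was -1.94.

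Both transporter genes were lower with maltose under every scaling tried. For FET4 the log2 fold change ran from -2.68 with equal FPKM sums to -0.98 with equal medians over all listed genes. For zrt1 these same scalings gave -2.43 and -0.78. Neither gene's media overlapped under implied depths, the authors' scaling, equal FPKM sums or either form of equal medians.

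**Figure D2:**
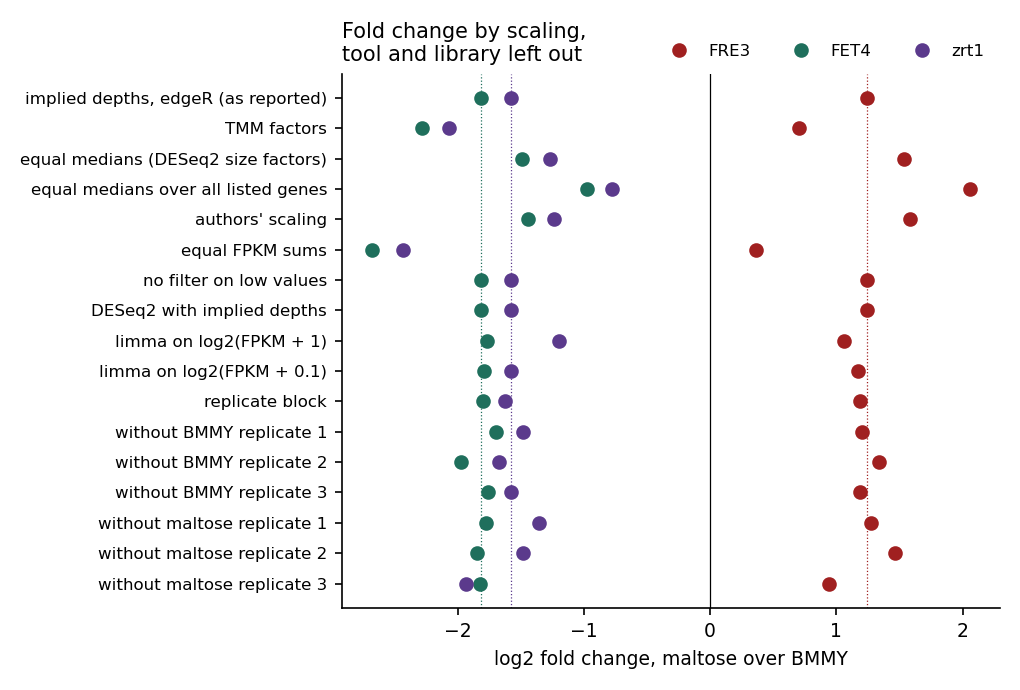
Log2 fold change of FRE3, FET4 and zrt1 (x axis, maltose over BMMY) under each scaling, tool and left-out library (rows), with dotted lines at the values reported. FRE3 stays to the right of 0 and both transporter genes to the left in every row, while equal FPKM sums move all 3 genes to the left, FRE3 to 0.37.

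The libraries that were high or low differed from gene to gene. In BMMY, FET4 and zrt1 had the same order of libraries, with replicate 1 highest and replicate 2 lowest, whereas FRE3 was highest in replicate 2. With maltose, replicate 3 held the highest value of FRE3 and of zrt1, though not of FET4. This library had the lowest implied depth, 35.3 M fragments, and it held the highest maltose value in 41 of the 59 listed lower genes and in 27 of the 56 listed higher genes. The part of depth in these values was not tested. On the log2 scale the SD among maltose libraries was 0.56 for zrt1 and 0.53 for FRE3, ranks 3 and 5 from the largest of 115 listed genes, whose median was 0.16. For FET4 it was 0.07, rank 102. In BMMY the SDs were 0.16 for FRE3, 0.32 for FET4 and 0.21 for zrt1, beside a median of 0.28 over the listed genes.

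Ratios of FPKM within a library do not depend on the scaling between libraries, and they set the reductase against the transporters directly. The ratio of FRE3 to FET4 was 0.0342, 0.0615 and 0.0357 in BMMY replicates 1, 2 and 3. It was 0.352, 0.222 and 0.475 with maltose. FET4 transcripts were thus 16.3 to 29.2 times as abundant per length as FRE3 transcripts in BMMY and 2.11 to 4.50 times as abundant with maltose. The mean log2 ratio was -4.57 ± 0.47 in BMMY and -1.58 ± 0.55 with maltose (SD, n = 3), a difference of 2.98, or 7.91-fold, and the media did not overlap.

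FRE3 and zrt1 were at similar levels in BMMY and far apart with maltose. The ratio of FRE3 to zrt1 was 0.844, 1.34 and 0.932 in BMMY replicates 1, 2 and 3, so neither gene was above the other in all of them. With maltose it was 10.1, 5.50 and 6.76, with FRE3 above zrt1 in all 3 libraries. The difference of the mean log2 ratios was 2.82, or 7.08-fold. Since each of these genes was listed for a change in its own direction, the ratios of FRE3 to each transporter gene had to differ. The choice also sets a floor under their size, as no listed gene changed by less than 1.00 on the authors' log2 scale. The ratios are given as descriptions only.

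The ratio of the transporter genes to each other differed little between the media by comparison. FET4 was 24.7, 21.8 and 26.1 times zrt1 per length in BMMY replicates 1, 2 and 3. With maltose it was 28.6, 24.8 and 14.2 times zrt1. The media overlapped, and the mean log2 ratios were 4.59 ± 0.13 and 4.43 ± 0.53 (SD, n = 3), a difference of -0.16 that was smaller than the SD of the maltose libraries. Without maltose replicate 3 the difference was 0.14, so its sign rests on that library.

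**Figure D3:**
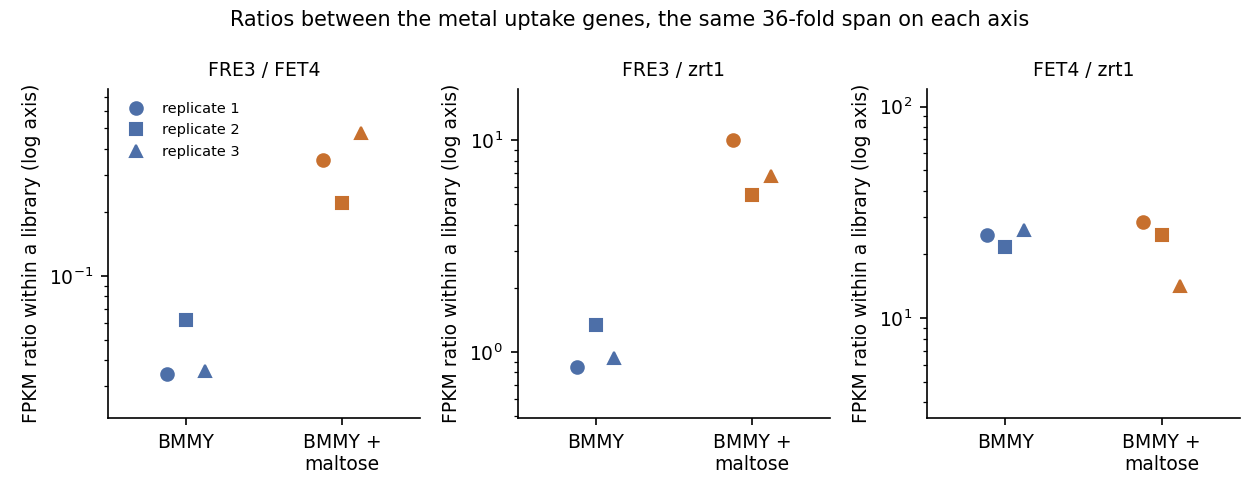
FPKM ratios between pairs of the metal uptake genes within each library (y axis, log scale, the same span in each panel), BMMY in blue and maltose in orange, the marker shape giving the replicate. The ratios of FRE3 to FET4 and of FRE3 to zrt1 are higher in every maltose library, from 0.0342 to 0.475 and from 0.844 to 10.1 at the extremes, and the ratio of FET4 to zrt1 overlaps between the media.

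Among the listed genes, FRE3 and zrt1 were weakly expressed and FET4 was near the middle. By mean FPKM, FET4 ranked 46 of 115 in BMMY and 59 with maltose. FRE3 went from rank 99 to rank 75, and zrt1 was at ranks 100 and 102. The median of the listed genes was 72.9 FPKM in BMMY and 40.5 with maltose. By size of log2 fold change, FRE3 was 9 of the 56 fitted genes that were higher, and FET4 and zrt1 were 22 and 34 of the 56 fitted genes that were lower. In the authors' deposited table the log2 fold changes were 1.58 for FRE3, -1.45 for FET4 and -1.23 for zrt1.

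**Figure D4:**
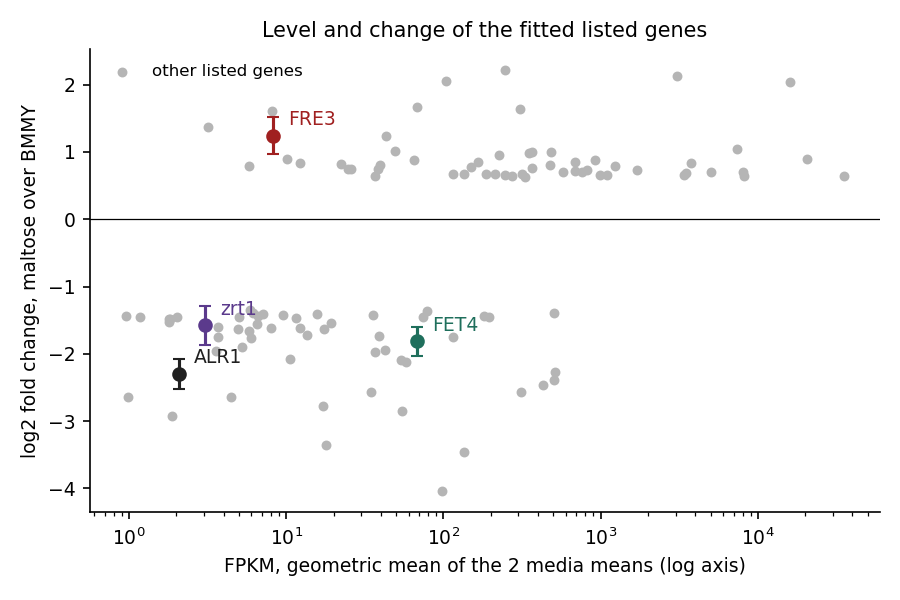
Log2 fold change (y axis, maltose over BMMY) against FPKM (x axis, log scale, geometric mean of the means of the media) for the 112 fitted genes, each grey point a listed gene, with FRE3, FET4, zrt1 and the magnesium transporter gene ALR1 coloured and their SE drawn as bars. The empty band around 0 comes from the selection of the list; FRE3 lies at a lower level than most of the higher genes, and FET4 lies far to the right of zrt1 and ALR1 along the level axis.

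The symbol searches found 1 other gene of metal handling in the table. Of 50 symbols searched for iron uptake and homeostasis, among them the high-affinity oxidase and permease, siderophore carriers and iron regulators, 2 were listed, FRE3 and FET4, 1 higher and 1 lower. Of 18 symbols searched for zinc, 1 was listed, zrt1. Of 23 symbols searched for copper and other metals, 1 was listed, the magnesium transporter gene ALR1 (PAS_chr2-2_0005). The table holds 115 of the 5040 protein-coding genes of the RefSeq annotation, so few matches are due in searches of this size. Nothing is read from these counts. The symbols are names used in other fungi, some of them synonyms, and which of them exist in K. phaffii was not checked. Genes of these pathways outside the table were not analysed here, so their levels are not known from this comparison. A search of the annotation for iron-binding terms and the words ferric and ferrous returned FRE3 alone. One for zinc ion binding, zinc ion transport or zinc finger returned ASH1 (PAS_chr3_0418), a GATA-type zinc finger regulator, which was 4.33-fold lower with maltose. These results depend on the wording searched, and a wider search for zinc, given below, found 9 listed genes.

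ALR1 encodes a plasma membrane magnesium transporter of the CorA family by its annotation. It had 3.85, 4.62 and 5.30 FPKM in BMMY replicates 1, 2 and 3 and 0.761, 0.932 and 1.11 FPKM with maltose. Every maltose library was below every BMMY library. The means were 4.59 ± 0.726 and 0.935 ± 0.176 FPKM (SD, n = 3), 4.91-fold lower with maltose. Its log2 fold change was -2.30 (SE 0.22), beside -1.82 for FET4 and -1.58 for zrt1. The maltose counts of ALR1 were 86 to 93 fragments.

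The deposited eggNOG annotation places 6 listed genes in the class of inorganic ion transport and metabolism, a class looked up after the values were seen. They were FRE3, FET4, zrt1, ALR1, TPN1 (PAS_chr1-3_0153) and PLT1 (PAS_chr4_0828). Of these, 3 were higher and 3 lower with maltose, beside 56 higher and 59 lower in the whole list. Their median log2 fold change, -0.46, falls between 0.66 for PLT1 and -1.58 for zrt1, so no lean of the class is read from it. TPN1, a vitamin B6 transporter in S. cerevisiae, was 4.14-fold higher, and PLT1, described in the annotation as a myo-inositol transporter, was 1.58-fold higher. Neither of these carries metals by its annotation.

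**Figure D5:**
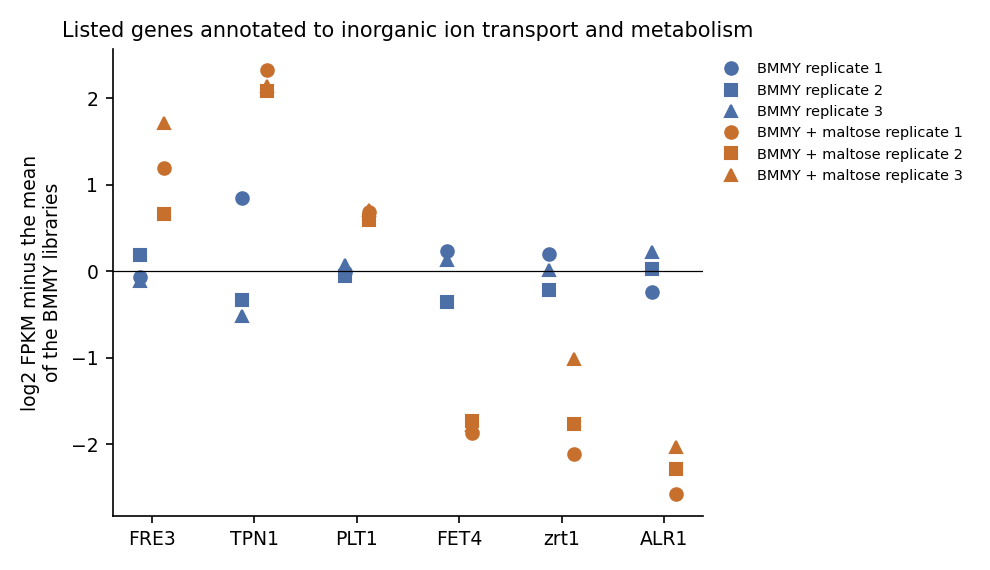
Log2 FPKM of the 6 listed genes of the inorganic ion class in each library, less the mean of that gene's BMMY libraries (y axis), BMMY in blue and maltose in orange, the marker shape giving the replicate. FRE3, TPN1 and PLT1 lie above 0 in the maltose libraries and FET4, zrt1 and ALR1 below, and BMMY replicate 1 is set apart from the other BMMY libraries for TPN1.

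Zinc also appears in the annotation as a part of proteins rather than as cargo. A text search for zinc, made after the values were seen, found 9 listed genes including zrt1, 2 higher and 7 lower with maltose, beside 56 higher and 59 lower in the whole list. Most were regulators with a zinc cluster or zinc finger, such as the carbon regulator CAT8 (PAS_chr4_0540), 2.76-fold lower, and ARG81 (PAS_chr3_0490), named for its part in arginine control in S. cerevisiae, 3.10-fold lower. The higher members were the methanol pathway enzyme FLD1 (PAS_chr3_1028), a zinc-binding dehydrogenase, at 1.63-fold, and the regulator SUT2 (PAS_chr1-4_0516), whose media overlapped.

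The listed genes most like each member over the 6 libraries were found by the root mean square difference of log2 FPKM after each gene was centred on its own mean. The values share libraries, and genes selected for the same contrast resemble each other by that choice, so the distances and Pearson's r (n = 6 libraries) are descriptions. Nearest to FET4 was PAS_chr4_0360, a gene with no described function, at a distance of 0.0865 and an r of 0.996. It had 11.5, 9.11 and 12.6 FPKM in BMMY replicates 1, 2 and 3 and 3.09, 3.37 and 3.25 FPKM with maltose, and as for FET4 its lowest library was replicate 2 in BMMY and replicate 1 with maltose. Next were CysA (PAS_chr2-1_0383), described as homoserine O-acetyltransferase of methionine synthesis, at 0.20, and PAS_chr3_0499, a zinc cluster protein with no name, at 0.22.

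Nearest to zrt1 were PAS_chr3_0208, with no described function, at 0.13, PAS_chr1-1_0328, with a domain of a vacuole-related protein, at 0.14, and ARO10 (PAS_chr3_0095), phenylpyruvate decarboxylase, at 0.16. Like zrt1, each of these had its highest maltose value in replicate 3, for example 29.5 FPKM of ARO10 against 17.0 and 17.7 FPKM. This held for 41 of the 59 listed lower genes, so it does not set these genes apart. FET4 ranked 18 in nearness to zrt1, at 0.33, and zrt1 ranked 24 in nearness to FET4.

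FRE3 had no listed gene as near. Its closest were ADY2 (PAS_chr2-1_0874), a member of an acetate and ammonia transporter family, at 0.34, PAS_chr3_1219, with no described function, at 0.35, and the general amino acid permease gene GAP1 (PAS_chr1-1_0030), at 0.36. PAS_chr3_1219 had only 17 to 61 fragments in a library, so counting error weighs on its values. GAP1 shared with FRE3 a highest maltose value in replicate 3, 178 FPKM against 133 and 122 FPKM in replicates 1 and 2. The same was seen in 27 of the 56 listed higher genes. ADY2 differed by a smaller factor between the media, 1.81-fold, than FRE3 did.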

How the data were processed

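The table analysed here holds, for 115 genes and 6 libraries, whole-number counts and FPKM values made by the authors, with the authors' deposited p-value, log2 fold change (maltose over BMMY) and annotation, per the file headers. The deposited p-value of each gene was not used. Per the submitters' processing notes, the tools were CASAVA, HISAT2 2.2.1 and StringTie, with their roles unstated. Coordinates are left out because the build is not given in the sources used here; neither are the annotation and strand setting. All 115 identifiers matched RefSeq genes of assembly ASM2700v1, used for gene length and order; no annotated gene there overlaps FRE3, FET4 or zrt1.

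Library depth was implied by the median of count over FPKM and gene length. Log2 fold changes and SEs came from edgeR 4.0.16 (R 4.3.3) quasi-likelihood fits of the 112 genes whose FPKM averaged 1 or more, with group as the only term and implied depths as library sizes. The SE is the log2 fold change over the square root of F. The fits were also run on simulated counts, with implied depths as the true library sizes and some genes left unchanged. That run says nothing about the choice of scaling or the selection of the list. Alternatives were TMM, equal medians (DESeq2 1.42.0 size factors), the authors' scaling, recovered from their fold changes to within 0.00344 over 92 genes with counts of at least 200, equal FPKM sums, no filter, DESeq2, limma 3.58.1 on log2(FPKM + 1) or log2(FPKM + 0.1), a replicate block, and each library left out. The genes and lists were chosen with earlier results of these data known. Named genes were the 3 metal uptake genes, matches of the metal lists, the 3 nearest listed genes of each by pattern and listed neighbours; others are said to be chosen later.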

Additional observations from a re-analysis of the deposited data

How the results depend on the processing

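FRE3 was higher and FET4 and zrt1 lower with maltose in all 16 alternatives tried for each gene. The genes were listed for these directions in these same libraries, so the shared sign largely follows from that choice and is no independent check. TMM, equal FPKM sums and equal medians over all 115 genes moved the size by more than the spread between replicates for all 3 genes, and the authors' scaling and equal medians over the fitted genes did so for FET4 but not for FRE3 or zrt1. With TMM factors the log2 fold changes were 0.71 for FRE3, -2.28 for FET4 and -2.07 for zrt1. With equal FPKM sums they were 0.37, -2.68 and -2.43, and the media overlapped for FRE3. The listed genes whose media did not overlap then numbered 71, 10 higher and 61 lower, in place of 109. TMM, equal FPKM sums and both forms of equal medians take the selected genes as their own scaling reference. With the authors' scaling FET4 was at -1.45, and with equal medians over the fitted genes at -1.49. Equal medians over all 115 genes, chosen after seeing the data because the median of a list split between higher and lower genes is poorly fixed, gave 2.06 for FRE3, -0.98 for FET4 and -0.78 for zrt1, a median shift of 0.84.

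With each library left out in turn, log2 fold changes ran from 0.94 to 1.47 for FRE3, -1.97 to -1.70 for FET4 and -1.94 to -1.36 for zrt1, and the listed genes that did not overlap from 109 to 115. The log2 ratio differences ran from 2.73 to 3.28 for FRE3 to FET4, from 2.58 to 3.02 for FRE3 to zrt1 and from -0.36 to 0.14 for FET4 to zrt1, the last turning positive without maltose replicate 3 and, at 0.0062, with medians in place of means. Same-numbered replicates did not deviate together (r of -0.14, -0.01 and 0.06 over 115 genes), and the replicate block gave 1.19 for FRE3, -1.80 for FET4 and -1.62 for zrt1. The block cannot change ratio differences of balanced pairs, 2.98, 2.82 and -0.16. Counting error was highest for zrt1 with maltose, 8.33% to 9.71%, below its spread of 40.5% between those libraries.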

Other observations

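In the order of RefSeq genes, FET4 and ALR1, both lower with maltose, lie 3 positions apart on the same chromosome, with 2 genes between them that are not in the table. FRE3 and zrt1 have no listed gene within 3 positions. Over the whole table, 36 of 115 listed genes have another listed gene within 3 positions, in 23 pairs, of which 18 share a direction. Gene order comes from assembly ASM2700v1. In BMMY, FET4 was lowest in replicate 2 and ALR1 in replicate 1, and with maltose both were lowest in replicate 1, while FET4 was highest in replicate 2 and ALR1 in replicate 3.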
